A study of Caenorhabditis elegans with 19 samples.

Results

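Potassium channel genes were taken from the gene names in the 3 annotated tables. Members were all names of the twk, kvs, kqt, irk, kcnl, slo, shk, shl and shw families with a number, together with egl-2, egl-36, egl-23, unc-103, unc-58, unc-93, sup-9, sup-10 and exp-2. The RefSeq gene table held 74 such genes among 19983 protein-coding genes. Of these 74 genes, 21 had an L2 peak, 56 had an L1 peak and 33 had a site in the comparison of stages. The members held 31 of 8333 L2 peaks, 145 of 37018 L1 peaks and 56 of 14675 compared sites.

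The peaks come from chromatin immunoprecipitation sequencing (ChIP-seq) of whole Caenorhabditis elegans larvae of the strain lin14(cc2841[lin-14::gfp]), in which LIN-14 carries GFP at its C terminus. All groups described share this genotype. L2 larvae were collected 21 ± 1 h after plating on food (5 ChIP and 4 input libraries), and L1 larvae 8 ± 1 h after plating (5 ChIP and 4 input libraries). Each stage had 1 peak list, called on merged libraries, so peak values have no replicate error and the depth of each library is unknown. The single ChIP library of untagged N2 larvae at L1 was not analysed here, so sites that appear without the tag were not set aside. In whole larvae, a lower occupancy in each cell and a smaller share of cells with occupancy cannot be told apart.

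LIN-14 is a nuclear protein of the heterochronic pathway, which sets the order of larval cell fates, and the microRNA lin-4 is known to lower its level after the first larval stage. Potassium channels let potassium leave the cell and so hold or restore a negative membrane potential. Voltage-gated channels of the Kv, EAG, ERG and KQT types open on depolarisation, SLO and SK channels respond to calcium or other ions inside the cell, and inward rectifiers stabilise the resting potential. K2P channels, most of which are named TWK in the worm, carry leak currents in neurons and muscle.

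LIN-14::GFP peaks were assigned to channels of every class. The share of members with an L2 peak was 28.4%, against 24.4% of all protein-coding genes. The share of members with an L1 peak was 75.7%, against 68.9% of all protein-coding genes. All 21 genes with an L2 peak also had an L1 peak, and over the whole L2 list 97.8% of peaks overlapped an L1 peak. The shares of members with a peak lie near those of all genes, so having a peak does not set the channel genes apart. The other 18 members had no peak and no site under their name. These were kvs-4, shl-1, egl-23, sup-9, unc-93, twk-3, twk-5, twk-6, twk-8, twk-9, twk-10, twk-11, twk-13, twk-16, twk-21, twk-44, twk-46 and twk-48.

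Fold enrichment is the peak caller's ratio of ChIP over control at the summit, and the enrichment and q-values given here are the authors'. The median fold enrichment of member L2 peaks was 1.54 (range 1.39 to 1.92), the same as the 1.54 of all L2 peaks. In L1 the member median was 1.78 (range 1.41 to 2.97), against 1.81 over all L1 peaks. An enrichment of 2 or more was reached by 0 of 31 member L2 peaks, against 0.12% of all L2 peaks. It was reached by 26 of 145 member L1 peaks (17.9%), against 24.7% of all L1 peaks. Each stage was called on its own, so enrichment ratios are not compared between the stages.

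**Figure D1:**
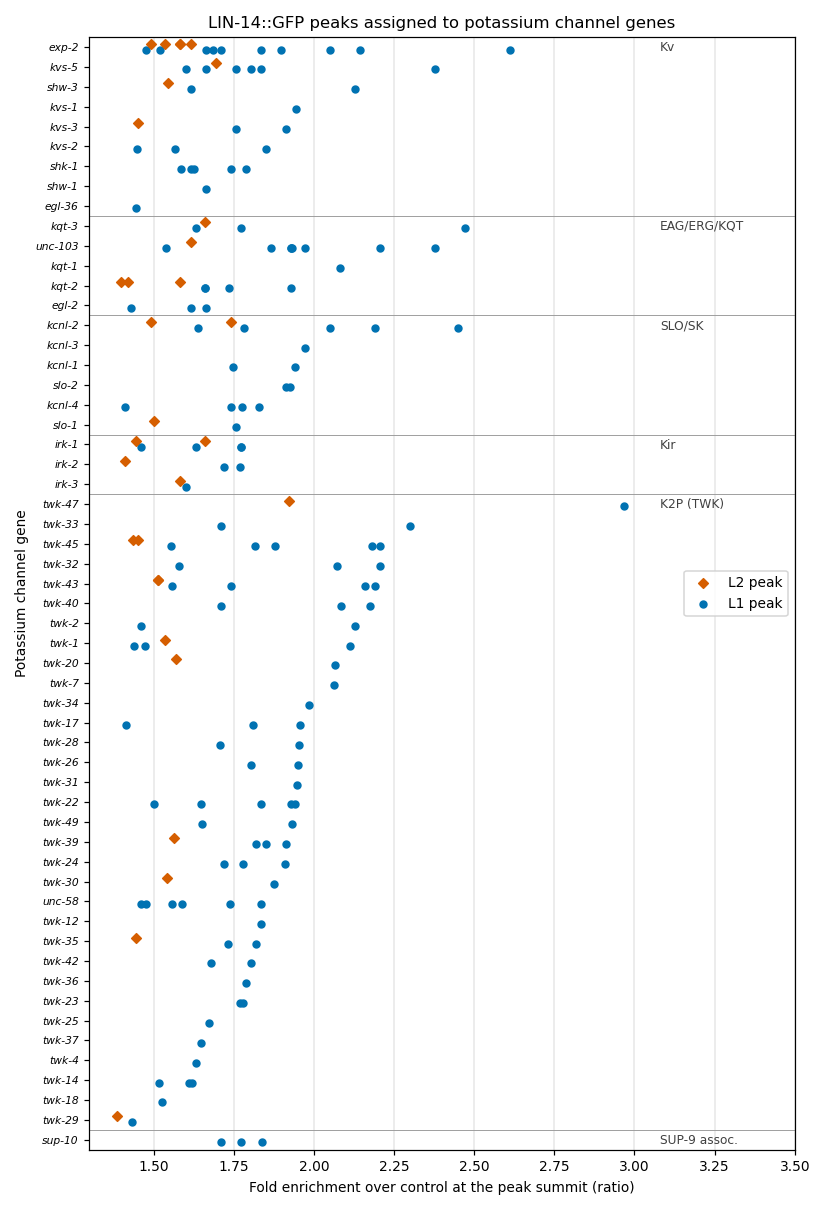
Fold enrichment (ratio over control, horizontal axis) of each peak assigned to a potassium channel gene, with 1 row for each of the 56 genes with an L1 peak, grouped by channel class. Orange diamonds are the 31 L2 peaks and blue circles the 145 L1 peaks. The twk-47 peak is the highest of the member peaks in both stages, at 1.92 in L2 and 2.97 in L1.

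Among the K2P channels, the gene twk-47 had the highest peak of any member in both stages. Its 1 L2 peak had a fold enrichment of 1.92 and was number 31 of the L2 list. Its 1 L1 peak had a fold enrichment of 2.97 and was number 34 of the L1 list. The peak lay inside the gene, 1734 bp past the nearest transcript start in L2 and 1720 bp past it in L1, at chromosome I positions 5835359 to 5835661 in the L2 list and 5835325 to 5835675 in the L1 list. The next L1 peaks under a K2P name were those of twk-33 at 2.30, twk-45 at 2.21, twk-32 at 2.21 and twk-43 at 2.19. Of these 4 genes, twk-45 and twk-43 had an L2 peak and twk-33 and twk-32 had none. The L1 peak of twk-43 at 2.19 overlapped an L2 peak, and that of twk-45 at 2.21 did not. The gene twk-20 had 1 L2 peak at 1.57, the next highest L2 peak under a K2P name, and 1 L1 peak at 2.07. In all, 9 of 47 K2P genes had an L2 peak (24.4% of all protein-coding genes) and 32 had an L1 peak (68.9% of all protein-coding genes).

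Other K2P channels are known for roles in movement and egg laying. The gene twk-18, which encodes a leak channel of body-wall muscle, had no L2 peak and 1 L1 peak with an enrichment of 1.53. The gene twk-40, for a leak channel of the motor circuit, had no L2 peak and 3 L1 peaks, the highest at 2.18. The gene unc-58, whose altered forms disturb movement, had 6 L1 peaks between 1.46 and 1.84 and no L2 peak. The gene egl-23, which affects egg laying, had neither. The same held for sup-9 and for unc-93, which encodes a regulatory subunit that acts with SUP-9. The other SUP-9-associated gene, sup-10, had no L2 peak and 3 L1 peaks, the highest at 1.84. UNC-93 and SUP-10 do not form a pore.

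Among the Kv channels, 4 of 11 genes had an L2 peak (24.4% of all protein-coding genes) and 9 had an L1 peak (68.9% of all protein-coding genes). The gene exp-2, a Kv channel that ends the action potential of pharyngeal muscle, had 5 L2 peaks and 10 L1 peaks, the most of any member in either list. It lies within the long muscle gene ttn-1, which encodes a titin-like protein, and all of these peaks overlapped the ttn-1 body. The exp-2 peak with the highest enrichment was in exon 23 of 31 of a ttn-1 transcript, with 1.62 in L2 (chromosome V, 6146940 to 6147121) and 2.61 in L1 (6146742 to 6147655). It was 5486 bp past the exp-2 start in L2 and 5288 bp past it in L1, beyond the end of exp-2. In the L2 list, 4 of the 5 exp-2 peaks lay past the end of the gene, and in the L1 list 5 of 10 did. The assignment to exp-2 is that of the nearest transcript start.

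The kvs-5 gene had 1 L2 peak with an enrichment of 1.70 and 6 L1 peaks up to 2.38, and the highest peak of each stage overlapped a transcript start. The Shaker channel gene shk-1 had no L2 peak and 5 L1 peaks between 1.58 and 1.79. The Shaw channel gene egl-36, which acts in the egg-laying muscles, had no L2 peak and 1 L1 peak at 1.45 under its own name. The kvs-1 gene had no L2 peak and 1 L1 peak at 1.94. The Shal channel gene shl-1 had no peak in either list.

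All 5 EAG, ERG and KQT genes had an L1 peak (68.9% of all protein-coding genes), and 3 had an L2 peak (24.4% of all protein-coding genes). The ERG channel gene unc-103, which dampens excitation of muscles and neurons, had 1 L2 peak at 1.62 and 8 L1 peaks up to 2.38. Its highest peak lay in exon 12 of 15 in both lists, 5283 bp past the nearest transcript start in L2 and 5179 bp past it in L1. The KQT gene kqt-3 had 1 L2 peak at 1.66 and 3 L1 peaks up to 2.47. The gene kqt-2 had 3 L2 peaks up to 1.58 and 4 L1 peaks up to 1.93. The gene kqt-1 had no L2 peak and 1 L1 peak at 2.08. The EAG channel gene egl-2 had no L2 peak and 3 L1 peaks up to 1.66 under its own name.

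Of the 6 calcium-activated channel genes, 2 had an L2 peak (24.4% of all protein-coding genes) and all 6 had an L1 peak (68.9% of all protein-coding genes). The SK channel gene kcnl-2 had 2 L2 peaks at 1.742 and 1.49 and 5 L1 peaks up to 2.45. The BK channel gene slo-1, which limits transmitter release, had 1 L2 peak at 1.502 and 1 L1 peak at 1.76, both in exon 8 of 21. The gene slo-2, whose channel is activated by ions inside the cell, had no L2 peak and 2 L1 peaks at 1.91 and 1.92 under its own name. All 3 inward rectifier genes had peaks in both stages (24.4% of all protein-coding genes had one in L2 and 68.9% in L1). The highest irk-1 peak was 1.66 in L2 and 1.77 in L1, and that of irk-3 was 1.58 in L2 and 1.60 in L1. The highest irk-2 peak was 1.41 in L2 and 1.77 in L1.

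**Figure D2:**
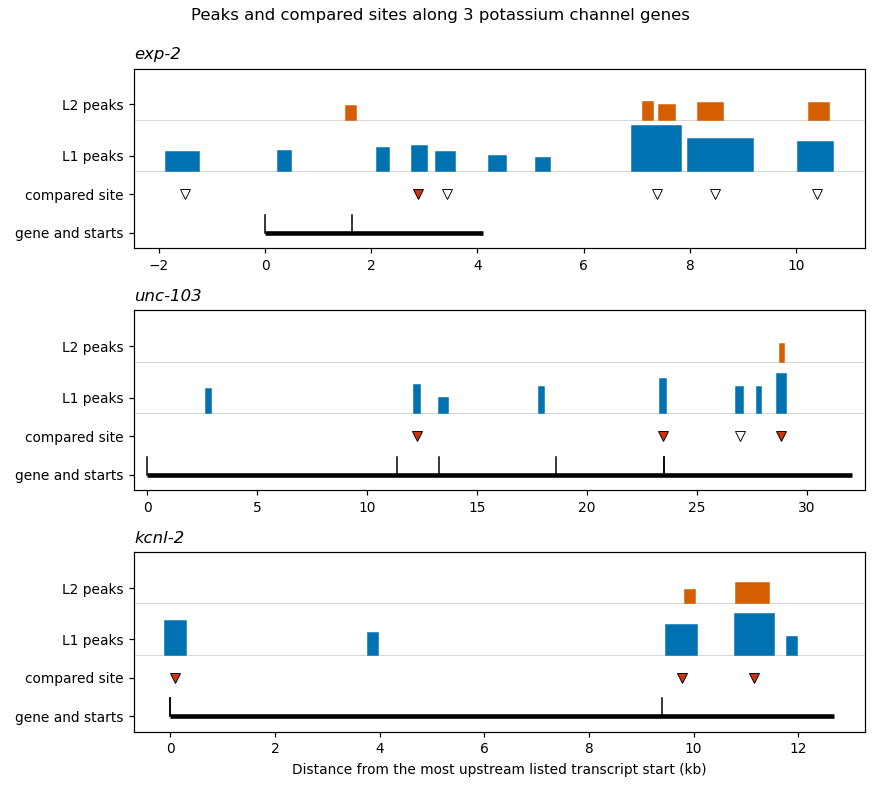
Positions of peaks and compared sites along exp-2, unc-103 and kcnl-2, in kb from the most upstream transcript start listed for each gene, with the gene as a black line and its listed transcript starts as ticks. Orange (L2) and blue (L1) boxes are peaks with a height in proportion to fold enrichment minus 1, and triangles are compared sites, filled red where occupancy was lower in L2 at a false discovery rate below 0.05. At exp-2 the tallest L1 boxes lie beyond the end of the gene, and at kcnl-2 all 3 sites are filled.

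Channel peaks lay mostly downstream of the nearest transcript start, as all peaks did. A larger share of them was in the exon class, and no difference in position was tested. Of 31 member L2 peaks, 22 lay downstream of the nearest transcript start (71.0%), 2 overlapped it (6.45%) and 7 lay upstream (22.6%). Over all L2 peaks these shares were 64.6%, 6.32% and 29.1%. Of 145 member L1 peaks, 91 lay downstream (62.8%), 25 overlapped the start (17.2%) and 29 lay upstream (20.0%). Over all L1 peaks these shares were 59.0%, 10.9% and 30.2%. The promoter class within 1 kb of a start held 41.9% of member L2 peaks, against 49.4% of all L2 peaks, and 49.7% of member L1 peaks, against 56.0% of all L1 peaks. The exon class, which counts exons more than 3 kb from a start, held 8 member L2 peaks (25.8%, against 9.19% of all L2 peaks) and 18 member L1 peaks (12.4%, against 6.57% of all L1 peaks). Of these exon peaks, 4 of 8 in L2 and 4 of 18 in L1 were the exp-2 peaks in ttn-1 exons. Another protein-coding gene was overlapped by 10 of 31 member L2 peaks and 21 of 145 member L1 peaks. This was not counted over all peaks. The 10 L2 peaks were under 4 names: exp-2 (within ttn-1), kqt-2 (endu-2), twk-1 (tyr-3) and twk-30 (phip-1). All 5 exp-2 and all 3 kqt-2 peaks of L2 were among them. The 21 L1 peaks were under these names and kqt-1, twk-26 and twk-42.

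**Figure D3:**
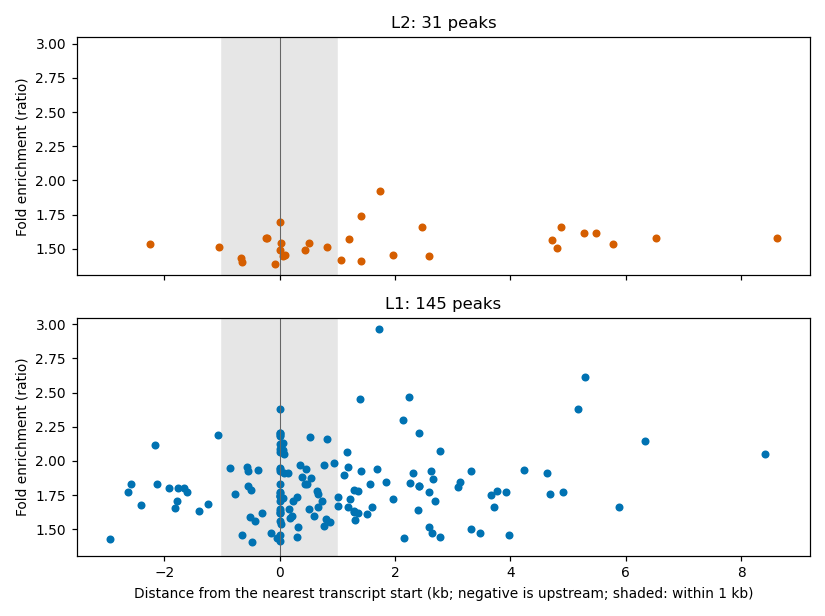
Distance of each member peak from the nearest transcript start (horizontal axis, kb, negative upstream, shading within 1 kb) against its fold enrichment (ratio), for 31 L2 peaks above and 145 L1 peaks below. Of the L2 peaks 22 lie downstream of the start, and of the L1 peaks 91 do.

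Because the nearest start decides the name, some peaks inside channel genes carry the name of a neighbour. In the exon and intron classes there were 3 such L2 peaks and 16 such L1 peaks, in 10 channel genes. Peaks inside a channel gene but within 3 kb of a neighbour's start are classed as promoter and are not in these counts. The gene twk-31 had 1 such L2 peak and 4 such L1 peaks in its exons, the highest at 1.54 in L2 and 2.14 in L1. The gene twk-2 had 1 such peak in L2 at 1.72 and 2 in L1 at 2.28 and 1.94. The gene twk-11, one of the 18 without a peak of its own name, had 1 such peak in L2 and 2 in L1. An L1 peak in exon 7 of 11 of egl-36 had an enrichment of 2.23, higher than the 1.45 of the peak under its own name. L1 peaks in exon 5 of egl-2 (1.96) and exon 8 of slo-2 (2.02) were also higher than those under the gene's own name. These peaks are not counted among the members' peaks.

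The L2 peaks of the channel genes were nearly all places that were also peaks in L1. By an overlap of at least 1 bp, 29 of 31 member L2 peaks overlapped an L1 peak (93.5%, against 97.8% of all L2 peaks). In the other direction, 26 of 145 member L1 peaks overlapped an L2 peak (17.9%, against 20.9% of all L1 peaks). The exceptions in L2 were the irk-3 peak and 1 of the 2 twk-45 peaks. Of member L1 peaks with an enrichment of 2 or more, 14 of 26 overlapped an L2 peak (53.8%, against 48.6% of all such L1 peaks). Of those under 2, 12 of 119 did (10.1%, against 11.8%). The L2 list is much shorter, and the depth behind each list is unknown.

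The comparison of stages asks where occupancy differed between L2 and L1. Its log2 fold is L2 minus L1, its concentrations are log2 mean normalised read counts, and sites with a false discovery rate (FDR) above 0.3 are not listed. Occupancy at channel genes was lower in L2 at every site that passed the threshold. In the authors' deposited table, 26 of 56 member sites were lower in L2 at an FDR below 0.05 (46.4%), against 41.4% of all listed sites. The authors' deposited table held 0 member sites that were higher in L2 at that FDR, against 0.123% of all listed sites, and 38 of 56 member sites had an unadjusted p under 0.05, against 64.1% of all listed sites. At an FDR below 0.01 the authors' deposited table had 0 lowered member sites, against 1.80% of all listed sites, and at an FDR below 0.1 it had 41, against 67.9%. A fold above 0 was found at 0 of 56 member sites of the authors' deposited table, against 0.252% of all listed sites, so this does not set the channel genes apart.

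By gene, 21 of 33 channel genes with a listed site in the authors' deposited table had at least 1 lowered site (63.6%), against 49.9% of the 7719 other protein-coding genes with a listed site. Channel genes had a mean of 1.70 listed sites, against 1.49 for all protein-coding genes with a listed site. With only the site of highest concentration kept for each gene of the authors' deposited table, 15 of 33 channel genes were lowered (45.5%), against 42.4%. With only the site nearest to a start kept, 19 of 33 were lowered (57.6%), against 40.6%, in the authors' deposited table. The excess over other genes therefore changed with which sites were counted.

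The size of the change at channel genes was that of the listed sites as a whole. The median log2 fold of member sites in the authors' deposited table was -0.46 (range -0.71 to -0.25), against -0.44 over all listed sites. That is an occupancy 27.0% lower in L2 at member sites, against 26.3% lower at all listed sites of the authors' deposited table. Of the 56 member sites, 28 lay below the median of all sites in the authors' deposited table. The SD of member folds in the authors' deposited table was 0.125, against 0.151 over all listed sites, and the median standard error of a member site, implied by its fold and p, was 0.203. Sites with a high FDR are left out of the authors' deposited table, which narrows the spread of the listed folds and can move their median away from 0. The percentages thus hold for listed sites only, and they depend on the authors' normalization, which is not given.

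**Figure D4:**
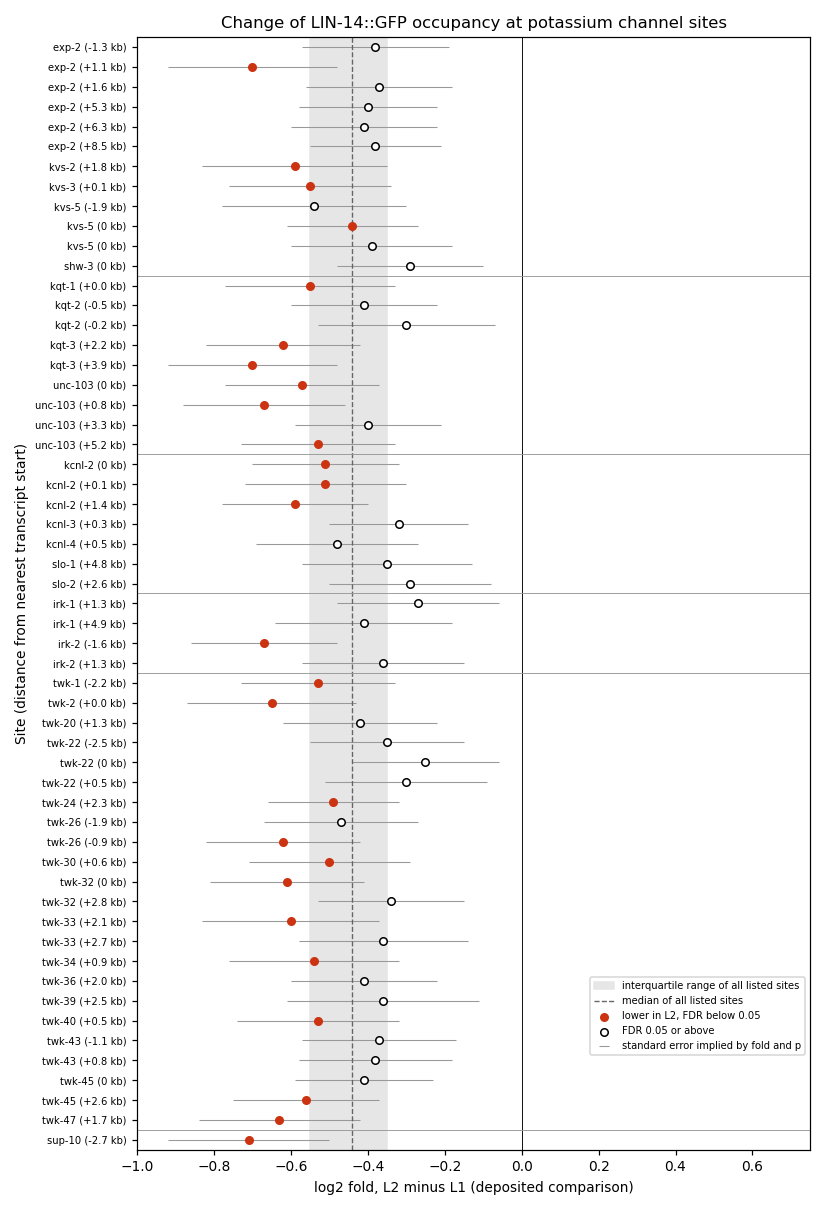
Log2 fold (L2 minus L1, horizontal axis) of the 56 member sites in the authors' deposited table, with the distance of each site from the nearest transcript start in its name and channel classes divided by lines. Bars are the standard error implied by the fold and p, red points are the 26 sites lower in L2 at an FDR below 0.05, and the dashed line and grey band are the median (-0.44) and interquartile range (-0.55 to -0.35) of all listed sites. All points lie below 0.

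In the EAG, ERG and KQT class, the authors' deposited table called 6 of 9 listed sites lower in L2, in 3 genes. Over all listed sites the share was 41.4%, and differences between the channel classes were not tested. The authors' deposited table gave unc-103 concentrations of 4.84 in L2 and 5.51 in L1 at its site 781 bp past a start, a log2 fold of -0.67 (implied standard error 0.21, FDR 0.0182). Another unc-103 site, over a start, had a fold of -0.57 (FDR 0.0256), and one in exon 12 had a fold of -0.53 (FDR 0.0365), both by the authors' deposited table. For the remaining unc-103 site the authors' deposited table gave a fold of -0.40 with an FDR of 0.0784. The lowered unc-103 sites thus lay at 1 start and further inside the gene. For kqt-3 the authors' deposited table gave 5.09 in L2 and 5.78 in L1 at the site 3931 bp past a start (fold -0.70, FDR 0.0168). The kqt-3 site under its highest peak had 5.96 in L2 and 6.57 in L1 in the authors' deposited table (fold -0.62, FDR 0.0205). The single kqt-1 site fell by 0.55 on the log2 scale in the authors' deposited table (FDR 0.0400), and it also overlapped the body of clec-266. The 2 kqt-2 sites had folds of -0.41 and -0.30 with FDRs of 0.0626 and 0.236 in the authors' deposited table. Both lay upstream of kqt-2 and overlapped the body of endu-2.

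In the Kv class, the authors' deposited table called 4 of 12 listed sites lower in L2 (all listed sites, 41.4%). There was 1 each in exp-2, kvs-2, kvs-3 and kvs-5. The authors' deposited table gave the exp-2 site 1100 bp past a start 4.95 in L2 and 5.65 in L1 (fold -0.70, implied standard error 0.22, FDR 0.0174). The 5 other exp-2 sites had folds from -0.41 to -0.37 and FDRs from 0.0636 to 0.0972 in the authors' deposited table. Among these 5, the 3 sites past the end of exp-2 included the highest concentrations of any member site in the authors' deposited table, up to 6.93 in L2 and 7.34 in L1. Whether the fold differed between the exp-2 sites was not tested. At kvs-2 the authors' deposited table gave 5.22 in L2 and 5.81 in L1 (FDR 0.0423), and at kvs-3 5.48 in L2 and 6.03 in L1 (FDR 0.0354). The kvs-5 site under its highest peak had 6.48 in L2 and 6.92 in L1 in the authors' deposited table (fold -0.44, FDR 0.0345). The Shaw channel site of shw-3 had a fold of -0.29 (FDR 0.169) in the authors' deposited table.

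In the calcium-activated class, the authors' deposited table called 3 of 7 listed sites lower in L2 (all listed sites, 41.4%). All 3 were in kcnl-2. The authors' deposited table gave kcnl-2 6.69 in L2 and 7.27 in L1 at the site under its highest peak (fold -0.59, implied standard error 0.19, FDR 0.0211). The kcnl-2 sites at the upstream and the inner transcript start each fell by 0.51 on the log2 scale in the authors' deposited table (FDR 0.0306 and 0.0430). All 3 listed kcnl-2 sites were thus lower in L2. The slo-1 site had 5.45 in L2 and 5.80 in L1 (FDR 0.157) and the slo-2 site 5.28 in L2 and 5.57 in L1 (FDR 0.210) in the authors' deposited table. Sites of kcnl-3 and kcnl-4 had folds of -0.32 and -0.48 with FDRs of 0.121 and 0.0591 in the authors' deposited table.

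Of 4 inward rectifier sites, 1 passed as lower in L2 by the authors' deposited table, against 41.4% of all listed sites. This irk-2 site, 1604 bp upstream of a start, had concentrations of 5.25 in L2 and 5.91 in L1 by the authors' deposited table, and no member site had a lower FDR (fold -0.67, implied standard error 0.19, FDR 0.0117). The other irk-2 site had a fold of -0.36 (FDR 0.122), and the irk-1 sites had folds of -0.41 and -0.27 (FDR 0.110 and 0.243), in the authors' deposited table. The sup-10 site, 2656 bp upstream of a start, had 4.76 in L2 and 5.48 in L1 in the authors' deposited table, the most negative fold of the members (-0.71, FDR 0.0139).

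In the K2P class, the authors' deposited table called 11 of 23 listed sites lower in L2 (all listed sites, 41.4%), 1 in each of 11 genes. At the twk-47 site the authors' deposited table gave 5.93 in L2 and 6.56 in L1 (fold -0.63, implied standard error 0.21, FDR 0.0229). The twk-2 site had 4.92 in L2 and 5.58 in L1 in the authors' deposited table (fold -0.65, FDR 0.0234). At twk-40 the authors' deposited table gave 5.14 in L2 and 5.67 in L1 (fold -0.53, FDR 0.0375). The other K2P genes that the authors' deposited table called lower in L2 were twk-1, twk-24, twk-26, twk-30, twk-32, twk-33, twk-34 and twk-45, with folds from -0.62 to -0.49. Among these, the lowered twk-1 and twk-26 sites lay upstream of the channel gene, within the bodies of tyr-3 and rsef-1. The twk-30 site overlapped both twk-30 and phip-1. The twk-20 site had 5.36 in L2 and 5.78 in L1 by the authors' deposited table (fold -0.42, FDR 0.0775). Both twk-43 sites, which lay under L2 peaks, had FDRs of 0.0950 and 0.105 in the authors' deposited table. The 3 twk-22 sites had folds of -0.35, -0.25 and -0.30 and FDRs from 0.126 to 0.223 in the authors' deposited table. Nearest to the threshold in the authors' deposited table were twk-30 on one side, with an FDR of 0.0453, and a second twk-26 site on the other, with 0.0513.

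Inside channel genes, the authors' deposited table had 6 more sites of the exon and intron classes under the name of a neighbouring gene. Of these, 3 were lowered, against 41.4% of all listed sites. The lowered sites were in intron 7 of kqt-3 (fold -0.81, FDR 0.0231), exon 10 of twk-31 (fold -0.51, FDR 0.0262) and exon 5 of egl-2 (fold -0.46, FDR 0.0494) in the authors' deposited table. The egl-36 site in exon 7 had a fold of -0.39 (FDR 0.0952) in the authors' deposited table. Of these genes, twk-31, egl-2 and egl-36 had no listed site under their own name.

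Lowered sites were also counted by position and chromosome. Within 1 kb of a start, the authors' deposited table called 13 of 23 member sites lower in L2 (56.5%), against 40.7% of all listed sites of that class. Between 1 and 2 kb the authors' deposited table called 5 of 14 lower (35.7%), against 40.3%, and between 2 and 3 kb 6 of 11 (54.5%), against 42.5%. In the exon class it was 2 of 8 sites of the authors' deposited table (25.0%), against 47.3%, and 3 of the 8 were exp-2 sites in ttn-1 exons. On the X chromosome the authors' deposited table called 4 of 16 member sites lower in L2 (25.0%), against 36.9% of all listed X sites. On autosomes the authors' deposited table called 22 of 40 lower (55.0%), against 42.4%. The median fold of member sites in the authors' deposited table was -0.39 on the X, against -0.43 over all listed X sites, and -0.51 on autosomes, against -0.45 over all listed autosomal sites. These are counts over few sites and none of the differences was tested.

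Each of the 56 member sites overlapped an L1 peak, and 21 of them were also under an L2 peak. The share of all listed sites that overlap an L1 peak was not counted. The first count is thus not read as particular to the channel genes. Of the 26 lowered sites in the authors' deposited table, 9 overlapped an L2 peak, and of the 30 others, 12 did. Over all lowered and all other sites of the authors' deposited table the shares with an L2 peak were 35.3% and 41.1%. The lowered twk-47 site, 2 of the 3 lowered kcnl-2 sites and 1 of the 2 lowered kqt-3 sites of the authors' deposited table were under an L2 peak. Of member L1 peaks, 37.9% overlapped a listed site, against 38.7% of all L1 peaks. By gene, 33 members had a listed site and 56 an L1 peak, against 7752 and 13765 of all protein-coding genes. Of the 56 genes with an L1 peak, 23 had no listed site under their own name, among them egl-2, egl-36, shk-1, kvs-1, twk-18, twk-7 and unc-58. For irk-3, twk-29 and twk-35 this was so although they had an L2 peak. A gene name absent from that list either was not compared or had an FDR above 0.3, and these cannot be told apart. A site inside the gene can also be listed under the name of a neighbour, as in egl-2 and egl-36.

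Genes that work with potassium channels were listed separately. Of 13 accessory and partner genes, 2 had an L2 peak (24.4% of all protein-coding genes) and 8 had an L1 peak (68.9% of all protein-coding genes). Lower occupancy in L2 was called by the authors' deposited table at 4 of their 8 sites, against the 41.4% of all listed sites. By FDR in the authors' deposited table the first 3 were dys-1, which encodes dystrophin and helps to localise SLO-1 in muscle (fold -0.68, FDR 0.0140), unc-43, the calcium/calmodulin-dependent kinase (fold -0.63, FDR 0.0250), and erg-28, which acts in SLO-1 trafficking (fold -0.53, FDR 0.0473). Of 12 calcium channel and sodium leak channel genes, which depolarise the cell, 11 were found in RefSeq under the name used. Of the 12, 4 had an L2 peak (24.4% of all protein-coding genes) and 7 had an L1 peak (68.9% of all protein-coding genes). Lower occupancy in L2 was called by the authors' deposited table at 4 of their 9 sites (44.4%). By the same order in the authors' deposited table the first 3 were unc-80, a subunit of the sodium leak channel (fold -0.65, FDR 0.0118), tag-180 (fold -0.56, FDR 0.0235) and egl-19, the muscle calcium channel (fold -0.49, FDR 0.0357). The authors' deposited table called no site of either group higher in L2.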

How the data were processed

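ChIP-seq of LIN-14::GFP larvae was analysed from tables the authors deposited. The submitters' processing notes name BWA and SAMtools, MACS2, and DiffBind and ChIPseeker, with versions, genome build and normalization not given in the sources used here. Every peak in the deposited lists has a score, a fold enrichment ratio over control and a -log10 q-value. For the comparison, the authors' deposited table has log2 concentrations, a log2 fold, a p-value and its FDR. Whether libraries came from separate cultures is not stated, so p-values measure a spread that may be technical. Positions follow the files, 1-based, and are uncertain by 1 bp in the comparison.

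Members, lists and tests were chosen with earlier results of these data known. The named genes are all members with a lowered site, the highest enrichments of each stage, the members with most L1 peaks and a fixed set of well-studied channels. The twk-7, twk-22, twk-29, twk-31, twk-35, twk-43, kcnl-3, kcnl-4 and shw-3 genes, and those that only carry a peak under another name, were named after their values were seen where that rule does not name them. Peak and site names were matched to RefSeq (assembly WBcel235, names and biotypes only) for 99.5% of L2 peaks, 99.5% of L1 peaks and 99.3% of sites. The implied standard error is the fold divided by the normal quantile of p. Overlap with other genes used protein-coding transcripts of the tables. The steps that find overlaps, call lowered sites and match member names were tested on planted cases. The software was pandas 2.3.3, matplotlib 3.10.9, SciPy 1.17.1 and NumPy 2.4.6 under Python 3.11.15.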

Additional observations from a re-analysis of the deposited data

How the results depend on the processing

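No paired analysis was possible because the tables hold no values per library, and for the same reason no library could be left out in turn. The number of member sites lower in L2 was 26 at an FDR below 0.05, 0 at an FDR below 0.01 (1.80% of all listed sites pass there), 41 at an FDR below 0.1 and 13 within 1 kb of a start. The number of genes with a lowered site was 21, and 0 at an FDR below 0.01. Genes with an L2 peak numbered 21, then 5 at a q-value of 1e-05 or less, 0 at 1e-10 or less and 0 at an enrichment of 2 or more. Genes with an L1 peak numbered 56, then 20 at a q-value of 1e-10 or less and 17 at an enrichment of 2 or more. Of 31 L2 peaks, 29 overlapped an L1 peak, 19 with a reciprocal overlap of at least 50%, and 15 with the L1 list limited to its top peaks. Most of these settings keep fewer sites or peaks by construction. Alternatives chosen after seeing the data left 25 lowered sites without exp-2 and 21 outside other protein-coding genes, and a median fold of -0.49 without exp-2. With the median of all listed sites subtracted, 28 of all 56 member sites lay below it. Of the 26 lowered sites, 25 lay below it and the kvs-5 site was at it. Lowered sites were picked by FDR, which favours the most negative folds. The count of 25 was thus largely set by that choice and is no check of direction. The other alternatives reuse the deposited folds, which are all below 0 at member sites, so they could not turn the direction.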
